A study of Mus musculus with 24 samples.

Results

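The 10 genes described here, Npas4, Arc, Homer1, Bdnf, Nptx1, Nptx2, Plk2, Nrn1, Rheb and Inhba, are a set of 1 neuronal early transcription factor and 9 synaptic or late effectors. They were found by matching symbols to the Ensembl IDs of the count tables, and they are 10 of 37621 features; each had 1 row in all 24 libraries and all 10 passed the filter on low counts in every comparison. Neuronal firing and calcium entry switch on a first wave of transcription within minutes, and many of its genes carry binding sites for CREB, the calcium- and cAMP-responsive activator. Npas4 is a basic helix-loop-helix PAS factor that, unlike most early genes, is induced largely by depolarisation and calcium in neurons, and it drives genes such as Bdnf that adjust inhibitory synapses. The effectors act at the synapse. Arc removes AMPA receptors from the membrane, the short form of Homer1 uncouples group I glutamate receptors from their scaffold, Plk2 is a kinase of synaptic down-scaling, and Rheb activates mTORC1. Bdnf, Inhba (the activin A subunit), the pentraxins Nptx1 and Nptx2, and the anchored neuritin Nrn1 act outside the cell.

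The libraries came from C57BL/6 mice, either Cdr1as knockout (KO) or wild type (WT), whose cerebellum, cortex, hippocampus and olfactory bulb had been dissected, with 3 libraries in each of 8 groups; poly(A) RNA was sequenced with a stranded kit. Cdr1as is a circular RNA of neurons with many binding sites for the microRNA miR-7, and the study asked what its loss does to the brain transcriptome. The labels give no age or sex and do not say whether replicates are separate animals, so p-values measure the spread between these libraries. Whole tissue was used, so neurons and glia cannot be told apart as the site of a difference. Libraries held 21.1 to 40.5 M gene counts, and in the olfactory bulb KO libraries (33.8 to 40.5 M) were deeper than WT ones (21.1 to 27.2 M). The deleted locus, which the authors counted as an added feature named Cdr1asG, had 0.115 to 1.95 CPM (counts scaled to a common library size) in KO libraries and 2.23 to 29.0 CPM in WT libraries, and the groups did not overlap in any region. Marker genes of the 4 regions were highest in the region of their label. Markers of other tissue were uneven: the 6 choroid plexus markers summed to 34.5 to 45.4 CPM in KO and 38.4 to 3243 CPM in WT hippocampus, and to 354 to 1283 CPM in KO and 16.3 to 2344 CPM in WT cerebellum. Libraries of equal number deviated together within the cerebellum, hippocampus and bulb, and number 2 stood apart in several members. The labels do not say whether counting used the strand, and in the annotation Bdnf overlaps Gm45346 and Nrn1 overlaps Fars2 on the opposite strand (up to 497 and 501 bases), so these 2 genes' counts are uncertain.

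Promoter sequence in the RefSeq table (build GRCm38.p6, 250 bases before to 50 after the start) was at hand for 6 of the 10 genes, Npas4, Homer1, Plk2, Bdnf, Rheb and Inhba. The windows of Npas4, Homer1 and Plk2 are shown because they set the gene with the clearest difference between genotypes beside 2 effectors that did not pass the test. Each is 300 bases on the strand of the gene, at chr19:4989922-4990221 (minus strand), chr13:93303507-93303806 (plus strand) and chr13:110394794-110395093 (plus strand). Capitals mark the half-site TGACG of the cAMP response element (CRE), on either strand.
Npas4: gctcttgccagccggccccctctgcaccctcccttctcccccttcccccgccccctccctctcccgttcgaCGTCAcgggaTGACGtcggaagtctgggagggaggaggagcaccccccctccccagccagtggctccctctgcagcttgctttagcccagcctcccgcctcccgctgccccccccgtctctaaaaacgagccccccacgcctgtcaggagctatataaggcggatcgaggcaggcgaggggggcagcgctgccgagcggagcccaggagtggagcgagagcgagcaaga
Homer1: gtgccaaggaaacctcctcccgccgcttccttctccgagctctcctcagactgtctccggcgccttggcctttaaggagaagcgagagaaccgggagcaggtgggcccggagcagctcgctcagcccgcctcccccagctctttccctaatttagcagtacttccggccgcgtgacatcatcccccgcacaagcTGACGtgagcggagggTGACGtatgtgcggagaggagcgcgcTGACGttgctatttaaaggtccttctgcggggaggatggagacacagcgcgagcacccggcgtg
Plk2: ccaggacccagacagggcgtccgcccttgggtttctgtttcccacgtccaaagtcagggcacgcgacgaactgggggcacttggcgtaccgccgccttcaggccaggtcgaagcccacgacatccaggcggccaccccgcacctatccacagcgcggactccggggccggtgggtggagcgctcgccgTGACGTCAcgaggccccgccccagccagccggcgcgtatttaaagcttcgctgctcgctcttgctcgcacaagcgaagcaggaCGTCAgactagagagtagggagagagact
Npas4 held 2 half-sites, starting 179 and 169 bases before the start. Homer1 held 3 in this window and none in its second one, and Plk2 held 3, of which an overlapping pair formed 1 full palindrome TGACGTCA. The half-site was found in 5 of the 6 genes, in Bdnf in 1 of 7 windows and in Inhba in none. The 6 genes had 13 windows together, and no gene held the half-site in more than 1 window. The shares that follow count windows, not genes. Of all 32851 windows in the table, 20.8% held the half-site and 1.79% the full palindrome, so a half-site is common; a match is a run of letters, not a bound site.

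The mature miR-7a-5p sequence is shown because Cdr1as binds this microRNA; capitals mark its seed, bases 2 to 8, which miR-7b-5p shares.
mmu-miR-7a-5p: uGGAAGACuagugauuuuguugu
The complement of that seed occurred in none of the 10 genes' longest annotated 3′ untranslated regions (GENCODE, from 620 bases in Plk2 to 4492 bases in Inhba), against 13.8% of 15168 genes tested with such a region. The lack of a match says nothing of other kinds of miR-7 binding.

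Did Npas4 differ between genotypes? Npas4 was higher in KO libraries in all 4 regions, by 2.57-fold in the olfactory bulb to 3.19-fold in the cerebellum, and its KO and WT libraries did not overlap in any of them. In the cerebellum it had 11.6, 23.5 and 23.4 CPM in KO libraries 1, 2 and 3, against 6.68, 7.37 and 4.27 CPM in WT libraries 1, 2 and 3. In the cortex it had 36.8, 76.7 and 75.8 CPM in KO libraries, against 10.1, 35.7 and 19.2 CPM in WT libraries. In all 4 regions KO library 1 was the lowest of its group and lay closest to the WT range. In the hippocampus the KO libraries had 21.0, 56.7 and 47.3 CPM, against 10.3, 17.9 and 13.1 CPM in WT libraries. In the olfactory bulb, where the gene was highest, the KO libraries had 65.6, 149.9 and 116.8 CPM, against 32.8, 54.8 and 40.4 CPM in WT libraries. Number 2 was the highest library in all 8 groups and number 1 the lowest in 7 of them, so the spread within a group followed the library number. Since KO and WT did not overlap in any region, KO was necessarily higher in all 12 pairs of equal region and number. The pair differences ran from 0.80 to 2.45 on the log2 scale.

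Averaged over the 4 regions, Npas4 was 1.55 higher on the log2 scale in KO than in WT libraries (SE 0.23, 2.92-fold, n = 12 each; edgeR quasi-likelihood test with Benjamini-Hochberg adjustment, adjusted p = 0.000863), the 69th smallest p of 17266 genes. In that comparison 462 genes passed (2.68%; 1256 with the library number as a block), 313 of them higher in KO (1.81%), and of the 10 members 2 passed, both higher in KO. KO lay above WT without overlap in all 4 regions in 47 genes (0.272%), and Npas4 was the only member among them. A bulk measurement cannot tell more cells with the transcript from more transcript per cell. The alternative fit that sums regions adds raw counts, so deeper libraries weigh more, and KO bulb libraries were deeper than WT ones. The main fit treats the libraries of a genotype as independent. The call for Npas4 held in each of 24 fits without 1 library (1.47 to 1.69). It also held with libraries of equal genotype and number treated as correlated, where only 108 genes passed (0.626%). It did not pass when libraries were summed over regions by genotype and number, so that n = 3 each (1.63, adjusted p = 0.417, no gene called), nor without the 5 libraries whose choroid plexus markers summed to over 1000 CPM, KO cerebellum 2, WT cerebellum 1 and 2, and WT hippocampus 1 and 3, a setting chosen after seeing the data (1.54, adjusted p = 0.0851, 99 genes called); this leaves 1 library in WT cerebellum and 1 in WT hippocampus, assumed to vary like the other groups.

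Some marker lists lay to 1 side in the same mean, where 8557 of 17266 genes were higher in KO, but few markers passed. All 6 choroid plexus markers were lower in KO (1 passed, median log2 difference -1.68), as were all 5 olfactory bulb markers (1 passed, median -0.52), and all 6 inhibitory neuron markers (0 passed, median -0.06). Of 5 cerebellum and 5 microglia markers 1 each was higher in KO (0 passed, medians -0.33 and -0.08). Of 5 astrocyte markers 4 were higher (0 passed, median 0.05), and of 5 hippocampus markers 3 (1 passed, median 0.05). Each remaining list had 2 or 3 markers higher in KO, and none passed. None of the choroid or inhibitory neuron markers was at 0 in any group. Their part in the Npas4 and Arc differences was not tested beyond the fit without choroid-rich libraries.

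Within single regions the Npas4 difference was 1.67 (SE 0.33) in the cerebellum, 1.53 (SE 0.55) in the cortex, 1.60 (SE 0.40) in the hippocampus and 1.36 (SE 0.32) in the bulb on the log2 scale, with 3 libraries per genotype. None passed in edgeR, with adjusted p of 0.627, 0.9998, 0.954 and 0.771. The cerebellum, hippocampus and bulb had no called gene at all (0.0% each) and the cortex had 6 (0.0379%). At an unadjusted p under 0.05 edgeR listed 2, 2, 2 and 5 of the 10 members in the cerebellum, cortex, hippocampus and bulb, where 5.48%, 4.2%, 5.16% and 5.33% of all genes lay under it. DESeq2 called Npas4 in the cerebellum (adjusted p = 2.85e-05, where 0.293% of genes passed), the hippocampus (0.00215, where 0.238% passed) and the bulb (0.00239, where 0.409% passed), but not in the cortex, where 0.644% passed; limma-voom called no member in any of the 4. With the library number as a block, the bulb difference passed in edgeR (1.32, adjusted p = 0.0108). In the cerebellum the 5 olfactory bulb markers summed to 70.4 to 99.1 CPM in KO and 31.7 to 41.8 CPM in WT libraries (1 gene of the list at 0 in each genotype). In the cortex they summed to 10.1 to 11.7 CPM in KO and 17.5 to 30.8 CPM in WT libraries; the groups did not overlap in either region, and what this does to Npas4 was not tested.

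**Figure D1:**
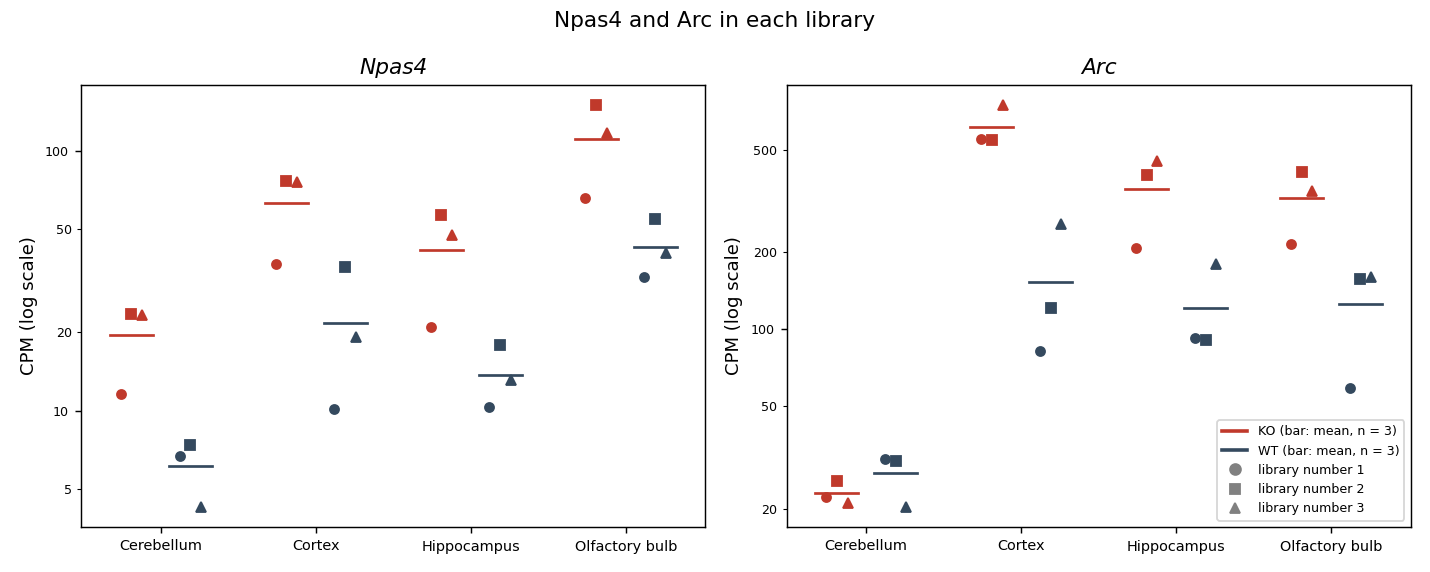
Normalised level (CPM, log scale) of Npas4 and Arc in each of 24 libraries by region, KO left of WT; symbols give the library number and bars the mean of 3. Npas4 lies higher in KO without overlap in 4 regions, and Arc in the cortex, hippocampus and olfactory bulb but not in the cerebellum.

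Arc, the effector that shuttles AMPA receptors off the synapse and is itself an immediate-early gene, was higher in KO in the 3 forebrain regions and not in the cerebellum. In the cortex it had 549, 547 and 746 CPM in KO libraries 1, 2 and 3, against 82.1, 121.0 and 257 CPM in WT libraries 1, 2 and 3. In the hippocampus it had 206, 397 and 451 CPM in KO libraries, against 92.4, 90.9 and 179 CPM in WT libraries. In the olfactory bulb it had 215, 409.6 and 346 CPM in KO libraries, against 59.1, 157 and 159 CPM in WT libraries. In each of these regions the lowest KO library lay above the highest WT library. In the cerebellum Arc was low and its groups overlapped, with 22.3, 25.7 and 21.1 CPM in KO libraries, against 31.3, 30.7 and 20.4 CPM in WT libraries. The log2 differences were -0.25 (SE 0.16) in the cerebellum, 1.99 (SE 0.46) in the cortex, 1.54 (SE 0.40) in the hippocampus and 1.35 (SE 0.42) in the bulb.

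Over the 4 regions Arc was 1.17 higher on the log2 scale in KO libraries (SE 0.21, 2.24-fold, n = 12 each, edgeR adjusted p = 0.00526). KO was higher in 10 of 12 pairs of equal region and number. In the 3 forebrain regions the lack of overlap fixes this outcome. In single regions edgeR adjusted p was 0.9997 in the cerebellum, 0.636 in the cortex, 0.954 in the hippocampus and 0.844 in the bulb; DESeq2 called Arc in the cortex (0.0218) and the bulb (0.0383), and the blocked edgeR fit called it in the bulb (1.43, adjusted p = 0.0463). The edgeR test of whether the KO effect differs in any way between regions did not pass for Arc (unadjusted p = 0.01004, adjusted p = 1). A contrast of the cerebellum with the forebrain regions was not tested. The mean call held in each of 24 fits without 1 library (1.08 to 1.31). It did not pass without the 8 libraries numbered 2 (1.08, adjusted p = 0.196), without the cortex (0.89, 0.0805), without the hippocampus (1.04, 0.0585), with libraries of equal genotype and number treated as correlated (1.23, 0.0607), when summed over regions (1.61, 0.336), or without choroid-rich libraries (1.35, 0.0841).

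The remaining 8 genes did not pass in the mean of the 4 regions, and their differences were small beside those of Npas4 and Arc. By p the next were Homer1 at 0.42 (SE 0.16, adjusted p = 0.219) and Plk2 at 0.13 (SE 0.05, adjusted p = 0.239) on the log2 scale, edgeR. Bdnf was at 0.19 (adjusted p = 0.357) and Nptx1 at 0.10 (adjusted p = 0.465), and Rheb, Nrn1, Inhba and Nptx2 lay between -0.10 and 0.01 with adjusted p of 0.872 to 0.999. The interval of 1.96 SE each way was narrow for Rheb (-0.08 to 0.11) and Nrn1 (-0.12 to 0.12) and wide for Inhba (-0.74 to 0.55).

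**Figure D2:**
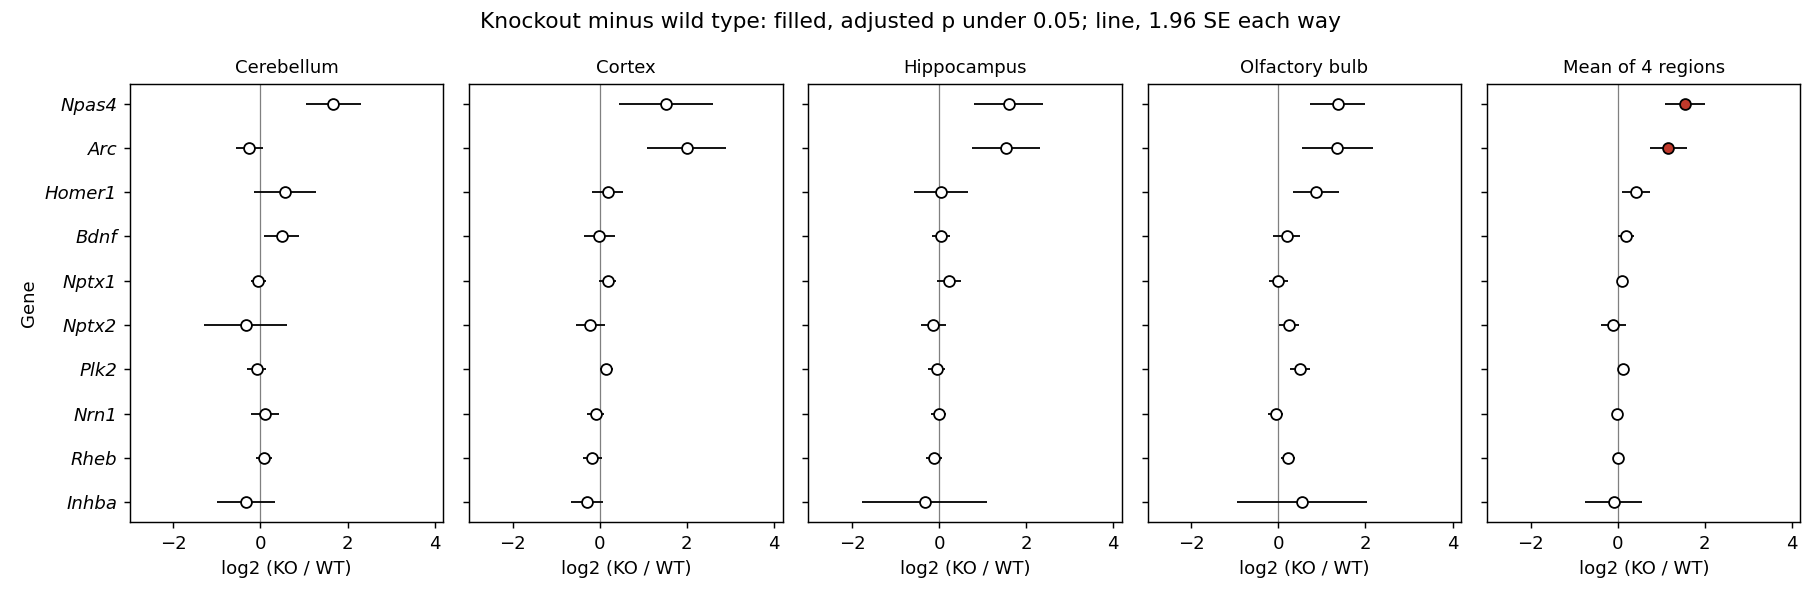
Log2 difference, KO over WT, of the 10 genes in each region and in the mean of 4 regions (edgeR); points are estimates, lines 1.96 SE each way, and filled points passed an adjusted p of 0.05. Only Npas4 (1.55) and Arc (1.17) in the mean are filled, and the Inhba interval is the widest of the 10 in the hippocampus, the olfactory bulb and the mean.

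Homer1, the postsynaptic scaffold gene whose short activity-induced form cannot be told from the long ones in gene counts, separated the genotypes without overlap in the olfactory bulb. There it had 281, 199 and 277 CPM in KO libraries, against 188, 101 and 120.0 CPM in WT libraries (log2 difference 0.87, SE 0.27, edgeR adjusted p = 0.837, not passed). In the other regions its groups overlapped, with 53.1 to 86.8 CPM in KO and 28.8 to 69.4 CPM in WT cerebellum, 399 to 498 CPM in KO and 294 to 483 CPM in WT cortex, and 159 to 281 CPM in KO and 147 to 286 CPM in WT hippocampus. Number 2 was the lowest Homer1 library in 7 of 8 groups, the reverse of Npas4. Both genes followed the library number, in opposite directions.

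Plk2, the activity-induced kinase of synaptic down-scaling, also separated the bulb. It had 100.2, 113 and 98.0 CPM in KO bulb libraries, against 61.6, 75.2 and 82.1 CPM in WT bulb libraries (log2 difference 0.49, SE 0.12, edgeR adjusted p = 0.772, not passed). In the cortex the groups also did not overlap, but the gap was small, with 251 to 266 CPM in KO and 223 to 239 CPM in WT libraries (log2 difference 0.15). In the cerebellum and hippocampus its differences were -0.09 and -0.06. Of the 10 genes Plk2 had the smallest p for a KO effect that differs between regions, with an edgeR adjusted p of 0.885. In that test edgeR passed no member at an adjusted p under 0.05, 3 at an unadjusted p under 0.05 (2.54% of all genes), and 4 genes overall at the adjusted threshold (0.0232%); DESeq2 and limma-voom passed no member either.

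Rheb, the GTPase that activates mTORC1, varied little across the libraries. In the bulb it had 126, 136 and 140.0 CPM in KO libraries, against 118, 108 and 114 CPM in WT libraries, without overlap (log2 difference 0.22, SE 0.08, adjusted p = 0.899, not passed). Its range over the other 3 regions was 96.3 to 119.7 CPM in KO and 95.7 to 143 CPM in WT libraries. KO lay above WT without overlap in 5.69% of all genes in the bulb, in 6.0% in the cerebellum, 4.85% in the cortex and 5.28% in the hippocampus. Among the 10 members that was so for 5 in the bulb (Npas4, Arc, Homer1, Plk2 and Rheb), 2 in the cerebellum (Npas4 and Bdnf), 3 in the cortex (Npas4, Arc and Plk2) and 2 in the hippocampus (Npas4 and Arc).

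Of the genes that act outside the cell, Bdnf, the neurotrophin that binds TrkB, came nearest to a difference in the cerebellum. It had 16.7, 17.6 and 23.98 CPM in KO cerebellum libraries, against 15.7, 10.8 and 15.1 CPM in WT cerebellum libraries (log2 difference 0.49, SE 0.20, adjusted p = 0.907, not passed). In the cortex and hippocampus its group means were within 0.06 of each other on the log2 scale, at 45.9 and 48.1 CPM in KO and 45.9 and 46.2 CPM in WT libraries. Nptx1, a pentraxin that clusters AMPA receptors, was at 661.6 CPM or more in every hippocampus library and differed by 0.23 there (SE 0.14, adjusted p = 0.9997). Nptx2, its activity-induced relative, had 88.3 to 113 CPM in KO and 95.8 to 141 CPM in WT cortex, with a difference of -0.22. Nrn1, a membrane-anchored neurite growth protein, overlapped in all 4 regions with differences of -0.09 to 0.11.

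Inhba, whose product forms activin A, varied more between libraries of 1 group than between genotypes. In the bulb it had 15.6, 3.76 and 11.1 CPM in KO libraries 1, 2 and 3, against 10.2, 1.76 and 8.71 CPM in WT libraries 1, 2 and 3. In the hippocampus it had 3.49, 1.34 and 4.35 CPM in KO libraries, against 6.45, 0.893 and 3.95 CPM in WT libraries. Library 2 was the lowest in both genotypes of these regions. The hippocampus markers were lowest in library 2 of all 8 groups, at 489 CPM in KO and 428 CPM in WT hippocampus and at 143 CPM in KO and 146 CPM in WT bulb, and their part in the Inhba values was not tested. In the cerebellum the gene had 12 to 24 counts in KO and 12 to 24 counts in WT libraries, which limits precision there.

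**Figure D3:**
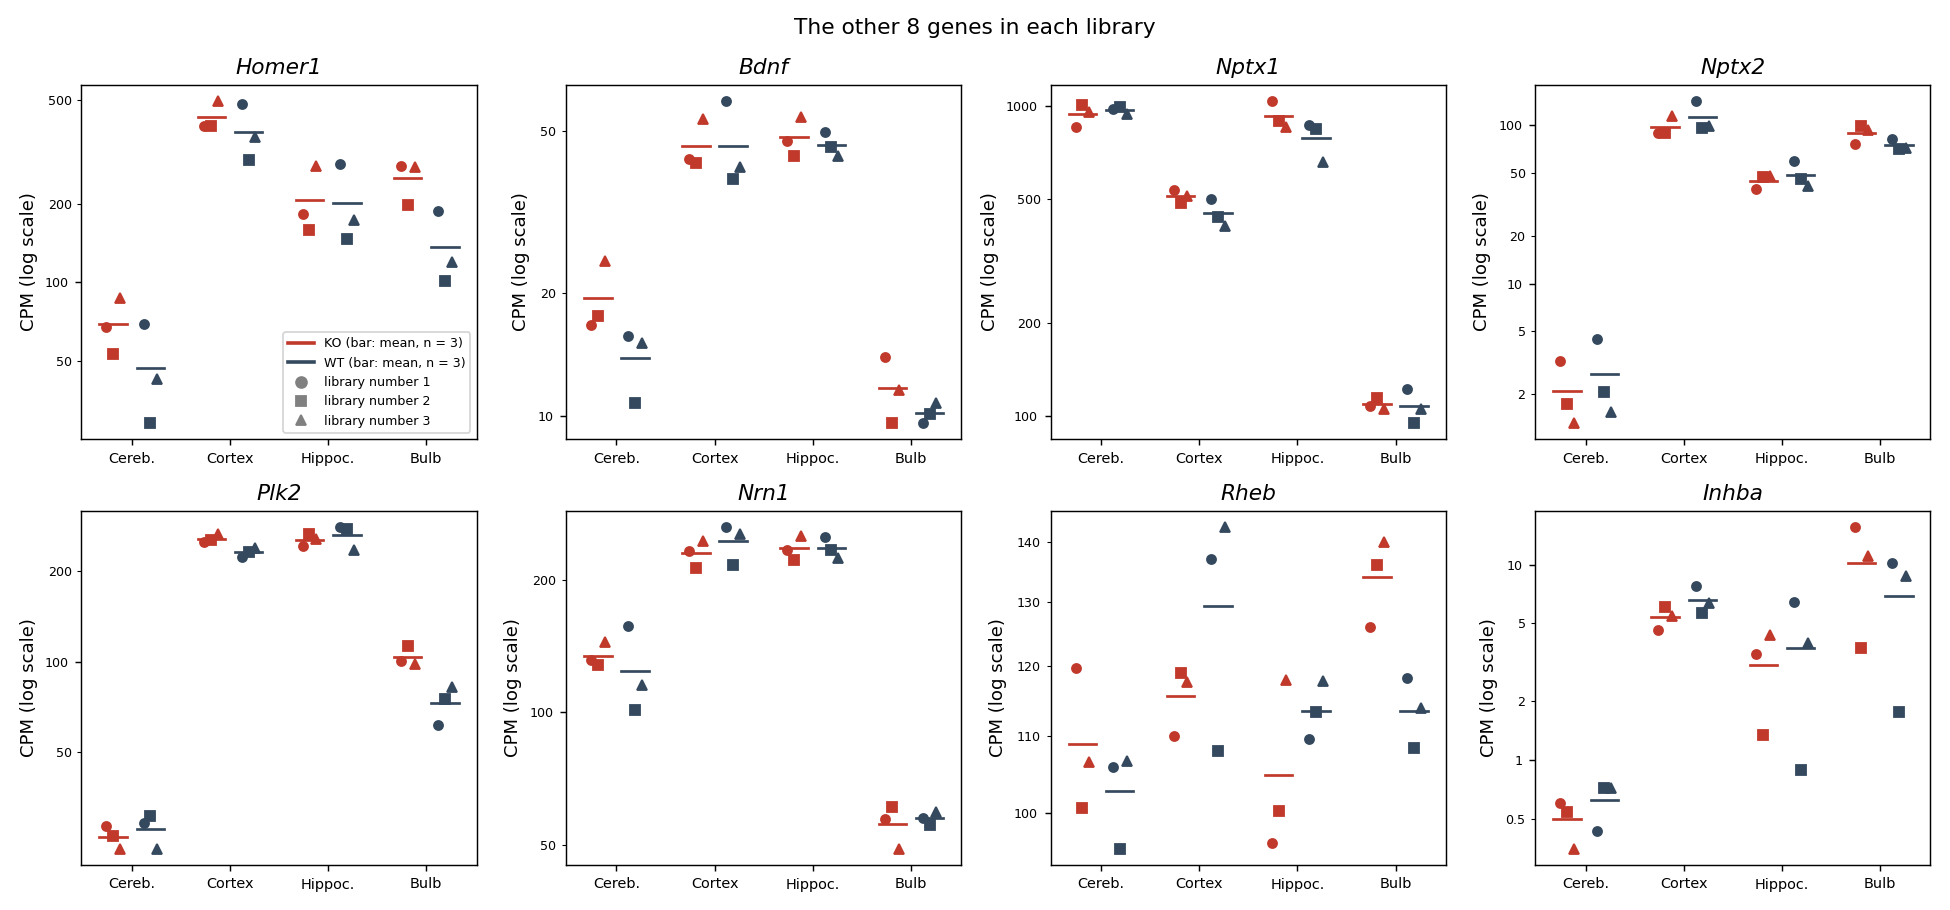
Normalised level (CPM, log scale, with its own range for each gene) of the 8 other genes in each library by region, KO left of WT; symbols give the library number and bars the mean of 3. Homer1, Plk2 and Rheb separate in the olfactory bulb, Plk2 also in the cortex, and Bdnf in the cerebellum. Inhba is lowest in library 2 of the hippocampus and bulb.

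How do the 10 genes differ between regions of the WT brain? Levels per length (CPM per kilobase of exon) compare genes only roughly, because the length joins all annotated exons of a gene. It is 11976 bases in Homer1 and 7721 in Rheb, whose longest annotated 3′ untranslated region has 841. A gene with unused exons is set too low, so the ranks below depend on this length. Nptx1 was the highest of the set in the cerebellum (186 ± 4.89, SD, n = 3) and hippocampus (151 ± 21.4). Nrn1 was the highest in the cortex (109 ± 11.03), and Arc in the bulb (40.9 ± 18.7), where Nptx2 (29.5 ± 2.43) and Nrn1 (25.5 ± 0.892) followed. Inhba was the lowest in every region, from 0.0977 ± 0.0256 in the cerebellum to 1.08 ± 0.705 in the bulb. Npas4, although an early gene, stood at 1.48 ± 0.394 in the cerebellum, 5.24 ± 3.14 in the cortex, 3.33 ± 0.937 in the hippocampus and 10.3 ± 2.70 in the bulb. Arc was higher than Npas4 per length in each region, with 8.97 ± 2.01 in the cerebellum, 50.2 ± 30.0 in the cortex, 39.5 ± 16.5 in the hippocampus and 40.9 ± 18.7 in the bulb.

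The cerebellum stood apart. In the cortex minus cerebellum comparison of the 12 WT libraries all 10 members passed in edgeR, 9 higher in the cortex and Nptx1 lower, where 53.7% of all genes passed. Nptx2 had the largest difference, with 111.6 ± 25.6 CPM in the cortex and 2.70 ± 1.55 CPM in the cerebellum (SD, n = 3 each; log2 difference 5.39, SE 0.35, adjusted p = 2.72e-07). Plk2 followed the same order with a smaller spread, at 231 ± 7.91 CPM in the cortex and 27.8 ± 3.51 CPM in the cerebellum (3.06, adjusted p = 5.02e-09). Homer1 differed by 3.02, Inhba by 3.37, Arc by 2.48, Npas4 by 1.83, Bdnf by 1.73, Nrn1 by 0.97 and Rheb by 0.33 on the log2 scale. Nptx1 went the other way, with 450.3 ± 46.2 CPM in the cortex and 971 ± 25.5 CPM in the cerebellum (-1.11, adjusted p = 1.85e-05). Leaving out the choroid-rich libraries keeps 1 WT cerebellum library, assumed to vary like the other groups. Npas4 (2.34, adjusted p = 0.0716), Arc (2.91, 0.0831), Inhba (3.18, 0.0598) and Rheb (0.27, 0.282) then did not pass, although the Npas4 and Arc differences were larger than in all libraries. Rheb also lost the call without cerebellum library 2 (0.0718), cortex library 1 (0.05003) or cortex library 3 (0.0805).

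Hippocampus minus cerebellum passed in 8 members, where 49.0% of all genes passed, all 8 higher in the hippocampus. Plk2 (3.26), Nptx2 (4.19), Homer1 (2.11), Bdnf (1.74) and Nrn1 (0.92) passed in every fit without 1 library. Leaving out the choroid-rich libraries sets 1 hippocampus library against 1 cerebellum library, both assumed to vary like the cortex and bulb. Arc then differed by 2.19 (2.14 in all libraries, adjusted p = 0.213), Npas4 by 2.10 (0.148) and Inhba by 0.34 (0.876), and none of these 3 passed. Npas4 (1.17, adjusted p = 0.0378) lost it without any 1 of the 3 cerebellum libraries, hippocampus libraries 2 or 3, or bulb library 3 (adjusted p 0.0511 to 0.129), and with limma-voom, library totals or no filter (0.0517 to 0.0814). Inhba (2.58, adjusted p = 0.0145) lost it with limma-voom (0.146) and without cerebellum library 1 (0.0528) or hippocampus library 1 (0.0658). Nptx1 (-0.30, adjusted p = 0.0723) passed only with the library number as a block (-0.31, 0.0177) or with library totals as the scale (-0.34, 0.0197).

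Few genes of any kind separated the hippocampus from the cortex. Hippocampus minus cortex passed in 2 members and in 13.5% of all genes, the lowest share among the WT region comparisons. The low count was therefore not particular to the members. The 2 pentraxins differed in opposite directions, Nptx1 with 789.8 ± 111.7 CPM in the hippocampus and 450.3 ± 46.2 CPM in the cortex (0.81, SE 0.13, adjusted p = 0.00111), and Nptx2 with 48.6 ± 9.31 CPM in the hippocampus and 111.6 ± 25.6 CPM in the cortex (-1.20, SE 0.28, adjusted p = 0.0161). The Nptx2 call was lost without cortex library 1 (0.0648), hippocampus library 2 (0.0605), hippocampus library 3 (0.0715) or the libraries numbered 2 (0.0722). Homer1 (-0.91, adjusted p = 0.144) passed with the library number as a block (-0.94, 6.34e-05) and with DESeq2 (0.0490). Bdnf (0.01, interval of 1.96 SE -0.32 to 0.35) and Nrn1 (-0.05, interval -0.33 to 0.22) had close means in both regions.

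In the olfactory bulb Bdnf, Nptx1 and Nrn1 were low and Npas4 was high. Bulb minus cerebellum passed in 8 members (46.4% of all genes), bulb minus cortex in 5 (44.3%) and bulb minus hippocampus in 5 (40.9%). Bdnf had 10.2 ± 0.574 CPM in the bulb, against 45.9 ± 11.5 CPM in the cortex (-2.17, SE 0.18, adjusted p = 2.13e-06) and 46.2 ± 3.22 CPM in the hippocampus (-2.18, adjusted p = 1.75e-06). Its bulb and cerebellum levels did not pass (-0.44, adjusted p = 0.0604), but did so with the number as a block (-0.42, 0.0333) and without cerebellum library 2 (0.0151), cortex library 1 (0.0260), cortex library 2 (0.0472) or the libraries numbered 2 (0.0283). Nptx1 (-2.06), Nrn1 (-2.09) and Plk2 (-1.66) were lower in the bulb than in the cortex, as was Homer1 (-1.47, adjusted p = 0.00789). Nptx1 and Nrn1 were lower in the bulb than in the cerebellum too (-3.17 and -1.11), while Plk2 was higher there by 1.396.

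Npas4 had 42.7 ± 11.2 CPM in the WT bulb, against 21.7 ± 13.0 CPM in the cortex, 13.8 ± 3.88 CPM in the hippocampus and 6.10 ± 1.63 CPM in the cerebellum (SD, n = 3 each). The bulb exceeded the hippocampus (1.63, adjusted p = 0.00842) and the cerebellum (2.81, adjusted p = 0.000285); without choroid-rich libraries, which leaves 1 WT hippocampus library, the first did not pass (1.22, adjusted p = 0.294). Its neighbours in this order, bulb and cortex, did not pass (0.97, adjusted p = 0.0713), but passed with the number as a block (1.06, 0.00737), DESeq2 (0.0260), limma-voom (0.0361), library totals as the scale (0.0462), and without cortex library 2 (1.53, 0.006) or the libraries numbered 2 (1.31, 0.0121); hippocampus minus cortex did not pass either (-0.66, adjusted p = 0.355). In KO libraries Arc was lower in the bulb than in the cortex (-0.92, edgeR adjusted p = 0.0230). In WT libraries Arc did not differ past the threshold among the cortex, hippocampus and bulb (adjusted p 0.658 to 0.946), and passed against the cerebellum in each. Its call in bulb minus cerebellum (2.19) was lost without the libraries numbered 2 (0.0774) or without choroid-rich libraries (2.62, 0.117), and that of Inhba without choroid-rich libraries (3.25, 0.0635) or with limma-voom (0.0514), each time with 1 WT cerebellum library where the choroid-rich ones are left out. Rheb had 102.8 ± 6.17 CPM in the cerebellum, 129 ± 18.6 CPM in the cortex, 114 ± 4.11 CPM in the hippocampus and 114 ± 4.95 CPM in the bulb, and its only call was cortex over cerebellum; without cortex library 2 it also passed in hippocampus minus cortex (-0.30, 0.0308) and bulb minus cortex (-0.30, 0.0122), as it did without the libraries numbered 2 (0.0401 and 0.0270). Nptx2 in bulb minus cortex (-0.58, adjusted p = 0.119) and bulb minus hippocampus (0.62, 0.103), and Homer1 in bulb minus hippocampus (-0.57, 0.245), passed only in other settings, among them the block (0.0146, 0.00755 and 0.000623) and, for Nptx2, without cerebellum library 1 (0.0212 and 0.0168).

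**Figure D4:**
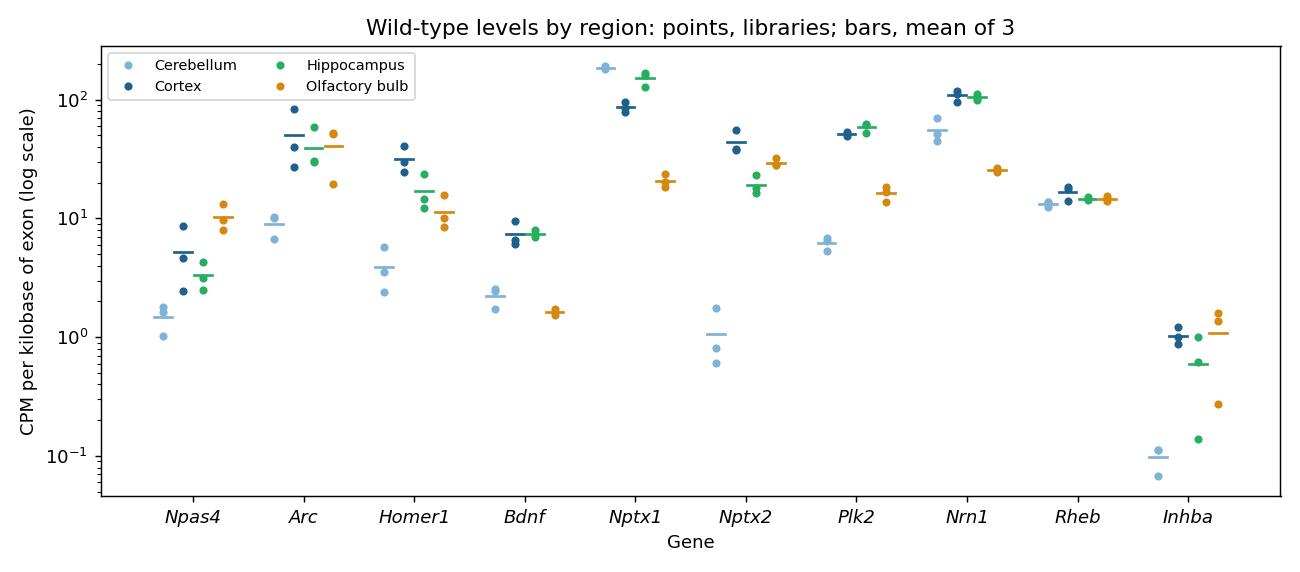
Level of the 10 genes in WT libraries (CPM per kilobase of exon, log scale) by region; points are libraries and bars the mean of 3. Nptx1, Nrn1 and Bdnf have their lowest mean in the olfactory bulb and the other genes in the cerebellum, Npas4 has its highest mean in the bulb, and the means of Rheb lie closest together.

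How did the 10 genes vary together within groups? Over 24 libraries, with each library given as its deviation from its group mean, Npas4 and Arc had a Pearson r of 0.53; these points share region, library number and depth, and no p is given. Npas4 ran against Inhba (r = -0.52), Homer1 (-0.36) and Bdnf (-0.34). Arc ran against Nptx1 (r = -0.69) and with Plk2 (0.47). Among 14436 genes with at least 1 CPM on average, those most like Npas4 were Acer2 (r = 0.89), Jak3 (0.88), Phyhd1 (0.86), BC005537 (0.84) and Nfatc2ip (0.83). Those most like Arc were Junb (r = 0.88), Ier2 (0.86), Otud1 (0.85), Slc16a4 (0.84) and Btg2 (0.82). The 2 lists of 5 shared no gene.

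The wider pathways were read from lists around the members, in the KO minus WT mean of 4 regions, where 1.81% of all genes rose and the median of all genes was -0.0012 on the log2 scale. The lists were chosen with earlier results of these data known, so their counts are a description and not an independent test. Of 19 other activity-induced transcription regulators, 15 rose and none fell (median log2 difference 0.97). Their summed level was 1567, 2434 and 2306 CPM in KO bulb libraries, against 532, 771 and 1095 CPM in WT bulb libraries, and 498, 785 and 752.5 CPM in KO cerebellum, against 319.7, 368 and 410.3 CPM in WT cerebellum. The sums of KO and WT libraries did not overlap in any of the 4 regions. As 15 of the 19 summed genes were already called higher in these libraries, this adds no further support. Atf3, a stress- and activity-induced repressor, rose by 1.32 (SE 0.14, edgeR adjusted p = 2.3e-05), Nr4a3, an orphan nuclear receptor, by 1.52 (4.41e-05), Fosl2, an AP-1 subunit, by 1.15 (5.7e-05) and Per1, a clock gene, by 0.79 (2.645e-05). Of 12 secreted and signalling activity genes 6 rose, among them the growth-arrest gene Gadd45b (0.59), the receptor Gpr3 (0.67), the salt-inducible kinase Sik1 (0.92) and the MAP kinase phosphatase Dusp6 (0.34). These lists lost calls without the choroid-rich libraries (8 of 19 and 4 of 12 passed), without the libraries numbered 2 (5 and 2), with libraries of equal genotype and number treated as correlated (10 and 3) and when summed over regions (0 and 0).

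Partners of the effectors mostly did not pass. Of 4 genes listed as partners of Npas4 1 rose, Arntl, by 0.17 (SE 0.04, edgeR adjusted p = 0.0194). Arnt (0.08, 0.886), Arnt2 (0.05, 0.762) and Arntl2 (-0.01, 0.997) did not pass. None of the 4 passed without the libraries numbered 2, with correlated libraries or when summed over regions. Of 8 Bdnf receptors and processing genes 1 rose, Plat, the plasminogen activator that matures pro-BDNF, by 0.47 (SE 0.06, adjusted p = 0.000285), a count that was 0 only when summed over regions. Of 5 genes of the Plk family and its substrate Sipa1l1 1 rose, Plk3, by 0.50 (SE 0.09, adjusted p = 0.00542), and none passed without choroid-rich libraries or when summed. None passed among 8 Homer relatives and binding partners (Shank3, a scaffold that Homer binds, 0.14, adjusted p = 0.134), 5 pentraxin receptor and AMPA receptor genes (Nptxr 0.17, 0.790), 9 Rheb and mTORC1 genes (Tbc1d7, a TSC complex subunit, -0.09, 0.423) and 12 activin pathway genes (Inhbb, an activin B subunit, 0.25, 0.134). In these 4 lists edgeR listed 1, 0, 0 and 1 genes at an unadjusted p under 0.05, where 2420 of 17266 genes lay under it, and DESeq2 and limma-voom called none. In them the medians were 0.08, 0.04, 0.00 and 0.04.

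**Figure D5:**
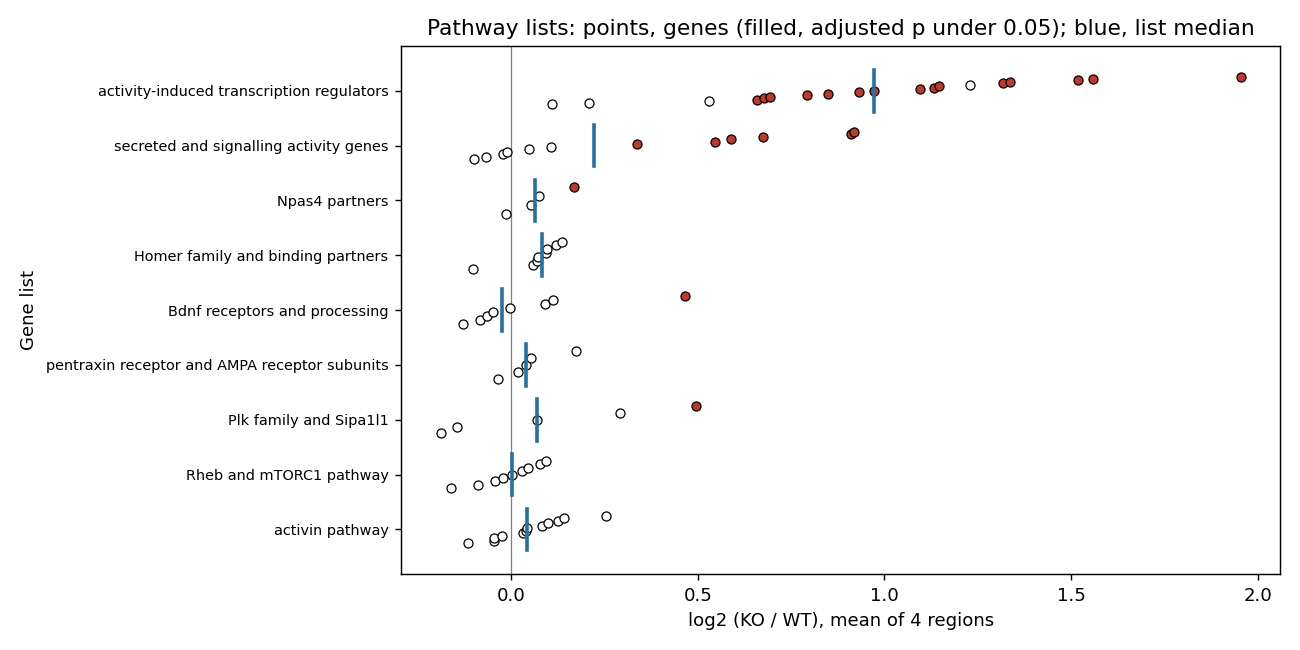
Log2 difference, KO over WT, mean of 4 regions, of the genes in 9 lists around the members; points are genes, filled where the adjusted p was under 0.05, and blue lines list medians. Of the 19 activity-induced transcription regulators 15 are filled, while the Homer, pentraxin, Rheb and activin lists hold no filled point. The lists were chosen with earlier results of these data known.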

How the data were processed

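Poly(A) RNA was measured in 24 libraries of 4 mouse brain regions and 2 genotypes. Each deposited table holds raw counts of reads for each gene, made by the authors with bcl2fastq 2.17.1.14, STAR 2.5.1b and HTSeq 0.6.1p1 on mm9, per the submitters' processing notes; the strand setting and any trimming are not given in the sources used here. Each table had 37621 features and 5 summary lines, which were left out; counts outside any feature made up 8.22% to 16.8%, ambiguous ones 0.576% to 0.764% and multiply aligned ones 10.3% to 13.5%.

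Counts were filtered (filterByExpr), scaled by TMM and tested by edgeR 4.0.16 quasi-likelihood F tests in R 4.3.3 over all genes, with Benjamini-Hochberg adjustment and a threshold of 0.05; limma 3.58.1 and DESeq2 1.42.0 served as alternatives. KO minus WT was tested in the 6 libraries of each region, and its mean over regions and its difference between regions in all 24; regions were compared in the 12 WT libraries. The edgeR tests recovered large known changes in simulated data. There every gene had the same spread beyond counting noise and the libraries were independent. The power reached in the real libraries is therefore not shown. CPM use the TMM factors, and CPM per kilobase the exon length of a GRCm38 annotation matched by ID. The members and the 22 gene lists (153 symbols, all matched) were chosen with earlier results of these data known. Text names all members, up to 4 called genes per pathway list by smallest p (otherwise the 1 with the smallest p), and the 5 genes most correlated with Npas4 and Arc (log2 CPM with a pseudocount of 0.5).

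Depth of 21.1 to 40.5 M counts sets the precision; a low gene such as Inhba in the cerebellum had 12 to 24 counts. Replicate pairs differed beyond sampling noise (chi-square per degree of freedom 6.66 to 56.7), so none was a copy. The replicate number was taken from the titles. Deviations of KO and WT libraries of equal number correlated in the bulb (0.36 to 0.84), hippocampus (0.37 to 0.64) and cerebellum (0.30 to 0.77). Those of unequal number ran from -0.71 to 0.50, -0.59 to 0.40 and -0.54 to 0.30, so the ranges overlapped. The block took equal numbers as pairs, although the labels state no such pairing. Libraries of equal genotype and number correlated between regions at -0.0144 to 0.767 in KO and 0.13 to 0.71 in WT. Alternatives were another normalization, no filter, DESeq2, limma-voom, the number as a block, each library or region left out, libraries of equal number treated as correlated, and libraries summed over regions.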

Additional observations from a re-analysis of the deposited data

How the results depend on the processing

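KO minus WT over the 4 regions passed in 2 members, and in 1 without the libraries numbered 2, without the cortex, without the hippocampus, or with libraries of equal genotype and number correlated (each time Npas4). It passed in 0 when summed over regions (Npas4 adjusted p = 0.417, Arc 0.336) and in 0 without the choroid-rich libraries (0.0851 and 0.0841). Leaving out each library kept the count at 2, and the number in single regions and in the test of different effects at 0. In single regions DESeq2 passed 1 member in the cerebellum, 1 in the cortex, 1 in the hippocampus and 2 in the bulb. In the cortex equal numbers did not all deviate together (-0.05 to 0.73) and so share only a number. There the replicate block in edgeR passed 1 member (Npas4, 1.62, adjusted p = 0.0297). The block passed 2 members in the bulb, where equal numbers correlated, but the labels state no pairing in any region. The block changed no other call of KO minus WT; between WT regions it added the 7 calls given with the results.

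Over all genes, 462 passed in the mean, against 790 with DESeq2, 1256 with the block, 200 without number 2, 170 to 233 without 1 region, 108 with correlated libraries, 99 without choroid-rich libraries and 0 when summed (1410 at an unadjusted p under 0.05). Region comparisons in WT ranged over fits without 1 library from 9 to 10 members (cortex minus cerebellum), 6 to 8 (hippocampus minus cerebellum), 8 to 9 (bulb minus cerebellum), 1 to 3 (hippocampus minus cortex), 5 to 7 (bulb minus cortex) and 5 to 6 (bulb minus hippocampus). Without choroid-rich libraries (1 library left in WT cerebellum and 1 in WT hippocampus) cortex minus cerebellum passed in 6 and hippocampus minus cerebellum in 5, and in KO libraries bulb minus hippocampus passed in 8. KO libraries did not pass Rheb in cortex minus cerebellum (0.10, edgeR adjusted p = 0.378) or Npas4 in hippocampus minus cerebellum (1.12, 0.0646). They newly passed Rheb in bulb minus cerebellum (0.32, 0.0130) and bulb minus hippocampus (0.35, 0.00883). Bdnf in bulb minus cerebellum (-0.71, 0.00451) and Homer1 in hippocampus minus cortex (-1.05, 0.0098) newly passed too. So did Nptx2 (0.996, 0.00368) and Inhba (1.74, 0.0147) in bulb minus hippocampus. Scaling by library totals moved the median of all genes to 0.188 in bulb minus cortex and 0.177 in bulb minus hippocampus. Of single-gene values, 2075 kept their side of the threshold and direction, 44 passed newly, 41 no longer passed, and no called value changed sign. The causes were not tested.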
